A study of Zea mays with 18 samples.

Results

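The genes described here are bx1, bx2, bx3, bx4, bx5 and bx8 of maize, which encode the early enzymes and a glucosyltransferase of benzoxazinoid synthesis. They are 6 of the 43484 gene models, and of the 45260 features, in a table of transcript levels of maize seedlings. The rule that picks them is a list of identifiers and uses no measured value: Zm00001d048709 (bx1), Zm00001d048710 (bx2), Zm00001d048702 (bx3), Zm00001d048703 (bx4), Zm00001d048705 (bx5) and Zm00001d048707 (bx8). The names come with that choice, since the table itself pairs no identifier with a name. All 6 were above 0 in every column and passed the filter on low values in every comparison.

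All seedlings were of the inbred line B73, and the labels give no mutation or transgene for any group. Seeds germinated for 3 days in the dark, and seedlings then grew for 48 h in nutrient solution, either with 1 nM epibrassinolide (EBL), a brassinosteroid hormone that promotes cell elongation, or as controls. RNA from primary roots, shoots (the stem, apex and coleoptile together) and the seedling's 1st leaf was sequenced as polyA RNA. Each of the 6 groups had 3 biological replicates, 18 samples in all. The table gives 1 RPKM value per organ and treatment, a read number scaled to gene length and library size, so levels of different genes can be compared. No standard deviation, interval or p-value can be attached to any value, and a difference could not be set against the spread of replicates.

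Benzoxazinoids are defence compounds of grasses, stored as glucosides and set free as toxins when tissue is damaged, and they are abundant in young maize seedlings. BX1 cleaves indole-3-glycerol phosphate and so makes free indole, which leaves the route to tryptophan. BX2, BX3, BX4 and BX5 are cytochrome P450 enzymes that add oxygen to indole in sequence and end at DIBOA, and BX8 attaches glucose to the product. Several genes of the pathway lie close together in the maize genome, a textbook case of a plant metabolic gene cluster.

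In the RefSeq annotation of a later assembly of the same line (Zm-B73-REFERENCE-NAM-5.0), genes carrying all 6 names lie on chromosome 4, in the order bx3, bx4, bx5, bx8, bx1 and bx2. The numbers in the identifiers run in the same order. RefSeq places 1 other gene between bx3 and bx4, 1 between bx4 and bx5 and 1 between bx8 and bx1, and it places bx5 next to bx8 and bx1 next to bx2. The order along the chromosome is therefore not the order of the reactions.

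Column sums over all features ran from 934116 RPKM in control shoots to 1599725 in EBL leaves, and the depth of the libraries is unknown. The organs could not be checked against named marker genes, because 0 of 16 marker symbols could be paired with an identifier. The same held for 17 further symbols of the pathway and its surroundings (bx6, bx7, bx9 to bx14, genes of indole and tryptophan synthesis, the glucosidases glu1 and glu2, and the lipoxygenases lox8 and lox10), of which 0 were paired.

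In the deposited values, the summed level of the 6 genes was highest in shoots, lower in leaves and lowest in roots. There bx1 to bx5 shared this order in control and EBL columns. For bx8 the control columns had the same order with small differences, at 85.5, 79.6 and 63.6 RPKM. With EBL, bx8 was highest in leaves, at 179 RPKM against 131 in shoots. Without EBL, the summed level of the 6 genes was 5401 RPKM in shoots, 2246 in leaves and 342 in roots. This was 0.631% of the RPKM of all gene models in shoots, 0.223% in leaves and 0.0381% in roots. With EBL the sums were 6071 RPKM in shoots (0.656%), 3544 in leaves (0.282%) and 290 in roots (0.0328%). In these bulk samples, fewer cells of a type and less RNA per cell cannot be told apart.

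For bx1, the gene of the committed step, shoot levels were 582 RPKM without and 650 with EBL, leaf levels were 224 and 286, and root levels were 20.8 and 21.0. Its root levels were far below its shoot and leaf levels. They still lay above 82.1% of gene models in control roots and 82.0% in EBL roots. bx2 encodes the P450 that adds the first oxygen to indole. Its shoot levels were 553 RPKM without and 626 with EBL, its leaf levels 227 and 405, and its root levels 5.85 and 7.04. It was the lowest of the 6 genes in roots, where it ranked 16428 among the gene models of the control column, against rank 186 in control shoots.

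The gene of the next P450, bx3, had shoot levels of 1114 RPKM without and 1144 with EBL, leaf levels of 380 and 556 and root levels of 84.3 and 67.7. For bx4, which follows it in the pathway, shoot levels were 1036 and 1141 RPKM, leaf levels 536 and 842, and root levels 82.1 and 52.3. These neighbours in the pathway differed little in shoots, with bx3 at 1.08 times the level of bx4 in control and 1.00 times in EBL. In leaves bx3 was the lower one, at 0.709 and 0.661 times bx4.

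bx5, whose enzyme completes DIBOA, was the most abundant of the 6 in every column. Its shoot levels were 2031 RPKM without and 2380 with EBL, its leaf levels 799 and 1277, and its root levels 85.5 and 72.2. In control shoots it ranked 10 and in EBL shoots 9 among all 43484 gene models. In roots its lead was small, since bx3 and bx4 stood within 5 RPKM of it in the control column.

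bx8, the glucosyltransferase gene, varied least. Shoot levels of bx8 were 85.5 RPKM without and 131 with EBL, leaf levels 79.6 and 179, and root levels 63.6 and 69.6. It was the lowest of the 6 in all shoot and leaf columns and the second highest in EBL roots.

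**Figure D1:**
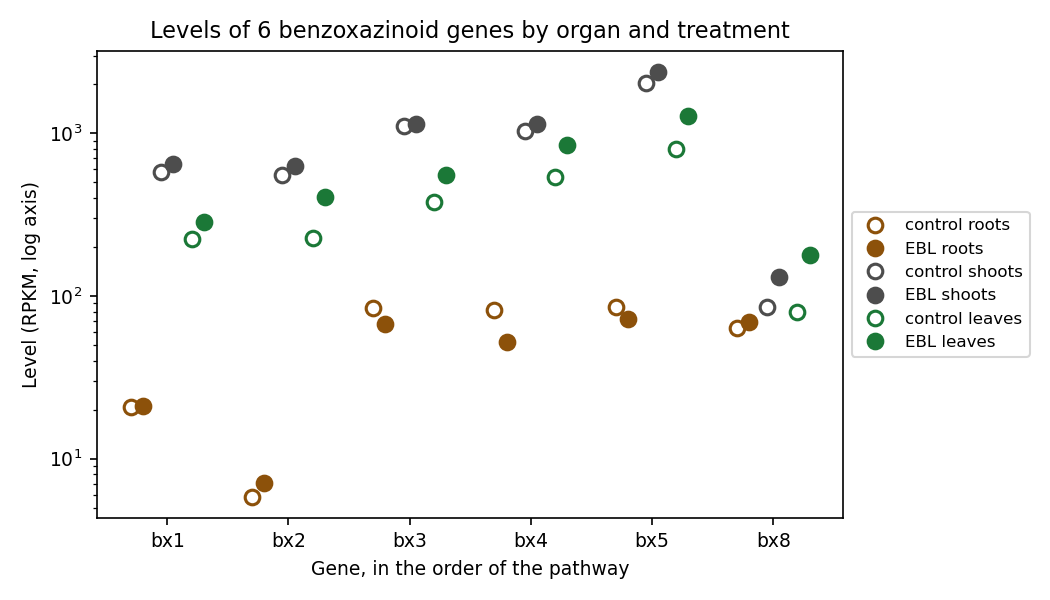
Level in RPKM (log axis) of each gene in control columns (open circles) and EBL columns (filled circles) of roots, shoots and leaves; each circle is the authors' single value for a group. The root values of bx1 to bx5 lie between 5.85 and 85.5 RPKM, below all their shoot and leaf values, while bx8 lies between 63.6 and 179 in all columns.

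The comparison of organs in control seedlings asked where transcripts of the 6 genes are abundant without added hormone. bx1 to bx5, 5 of the 6 genes, were at least 2-fold higher in shoots than in roots, a size that 11.9% of the 25700 gene models compared reached in that direction. Fold changes here and below are log2 ratios after adding 1 to each value. The log2 difference was 6.34 for bx2, 4.74 for bx1, 4.55 for bx5, 3.71 for bx3 and 3.64 for bx4, against 0.42 for bx8. In bx2 that is an 80.8-fold higher level. The median over the 6 genes was 4.13, against -0.07 over all gene models compared.

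The same 5 genes were at least 2-fold higher in control leaves than in control roots, as were 15.8% of 25515 gene models. The order of sizes was much the same, with bx2 first at 5.06 (33.3-fold), then bx1 at 3.37, bx5 at 3.21, bx4 at 2.69 and bx3 at 2.16. bx8 differed by 0.32, short of 2-fold. Scaling columns by median ratios brought it to 1.08, and moved the median of all gene models from -0.65 to -0.01. These organ comparisons share columns and are not independent of each other.

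All 6 genes were lower in control leaves than in control shoots, and 4 of them (bx1, bx2, bx3 and bx5) by at least 2-fold, as were 30.3% of 25509 gene models. The log2 difference was -1.55 for bx3, -1.37 for bx1, -1.35 for bx5, -1.28 for bx2, -0.95 for bx4 and -0.10 for bx8. Their median was -1.31, against -0.46 over all gene models, so more gene models were lower in leaves than higher. The share of gene models lower in leaves was not counted. Of the gene models compared, 16.4% lay below the difference of bx3, 20.0% below bx1, 20.6% below bx5 and 22.2% below bx2. For bx4 this share was 32.0% and for bx8 it was 62.0%. Under median-ratio scaling, which moved the median of all gene models to 0.06, none of the 6 was 2-fold lower and bx8 was higher in leaves by 0.55. With all columns brought to an equal total over the gene models (equal-total scaling), 5 of the 6 were 2-fold lower, bx4 among them at -1.18. The number was also 5 after quantile normalization, where bx3 was at -2.34, bx4 at -1.75, bx5 at -2.63 and bx8 at 0.01. The background moved as well. Gene models past 2-fold in either direction made up 45% in the deposited values and 40.5% under median-ratio scaling. They made up 49.9% under equal-total scaling and 40.5% after quantile normalization. The lower level in leaves thus held in direction for bx1 to bx5, and its size depended on the scaling.

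In EBL columns the contrast with roots was larger than in control columns, except for bx2 in shoots. bx1 to bx5 were at least 2-fold higher in EBL shoots than in EBL roots (12.8% of 25511 gene models), with bx2 at 6.28 and bx8 at 0.90 (log2). In EBL leaves all 6 exceeded EBL roots by at least 2-fold (17.7% of 25433), bx8 being the additional one at 1.35, or 0.84 under equal-total scaling. Leaves and shoots lay closer together, with bx1 and bx3 at least 2-fold lower in EBL leaves (33.0% of 25389), at -1.18 and -1.04. The number was 4 under equal-total scaling and 0 under median-ratio scaling, where bx2, bx4 and bx8 were higher in leaves by 0.10, 0.29 and 1.18. Gene models past 2-fold in either direction made up 49.8% as deposited, 56.1% under equal-total scaling and 42.5% under median-ratio scaling. The gap in summed level between EBL shoots and EBL leaves therefore also depended on the scaling.

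The make-up of the summed level of these 6 genes, which are a part of the pathway, differed between roots and the other organs. In the control columns, bx5 made up 37.6% of the summed level of the 6 genes in shoots, 35.6% in leaves and 25.0% in roots. For bx8 the shares were 1.58% in shoots, 3.55% in leaves and 18.6% in roots. For bx2 they were 10.2%, 10.1% and 1.71% in the same order. A ratio of 2 genes within a column is not altered by multiplying the column by a constant, as median-ratio and equal-total scaling do, but quantile normalization can alter it.

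The genes of the first reactions, bx1 and bx2, stood side by side in shoots and control leaves, with bx2 at 0.9495 times bx1 in control shoots, 0.963 times in EBL shoots and 1.01 times in control leaves. In EBL leaves the ratio was 1.41. In roots bx2 was well below bx1, at 0.281 times its level in control and 0.336 times in EBL. Root levels of bx8 were 0.744 times those of bx5 without EBL and 0.964 times with it. In shoots this ratio was 0.0421 and 0.0549, and in leaves 0.0997 and 0.140. In each organ that ratio was higher in the EBL column than in the control column.

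**Figure D2:**
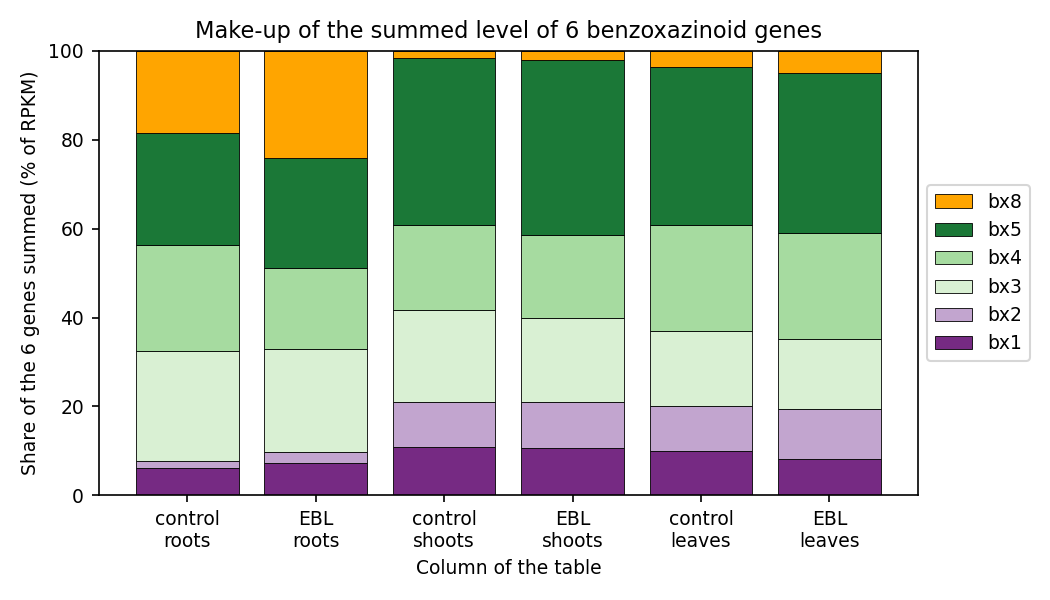
Share of each gene in the summed RPKM of the 6 genes, as stacked bars from 0 to 100% for the 6 columns. bx8 takes 18.6% in control roots and 24.0% in EBL roots, against 1.58 to 5.04% in the shoot and leaf columns, while bx2 is the thinnest segment in roots at 1.71% and 2.43%.

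The treatment comparison asked how 48 h of EBL affected these genes within an organ, and leaves differed most. All 6 genes were higher in EBL leaves than in control leaves, as were 48.2% of the 25458 gene models compared. The log2 difference was 1.16 for bx8 (a 2.23-fold higher level), 0.83 for bx2, 0.68 for bx5, 0.65 for bx4, 0.55 for bx3 and 0.35 for bx1. Only bx8, 1 of the 6, passed 2-fold, against 5.77% of gene models in either direction. It lost that call under equal-total scaling (0.84) and after quantile normalization (0.91).

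The median over the 6 genes in leaves was 0.66, against -0.01 over all gene models and a middle 50% of gene models from -0.26 to 0.30. The genes were also set beside the 1592 other gene models whose control value lay between the lowest and the highest of the 6, at 79.6 to 799 RPKM. Those had a median of 0.12 and a middle 50% from -0.22 to 0.50, and 58.5% of them were above 0. bx1 lay inside that middle range and the other 5 genes above it. Under equal-total scaling, which moved the median of all gene models in leaves to -0.23, the 6 effects ran from 0.03 for bx1 to 0.84 for bx8 and all stayed above 0.

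In shoots bx1 to bx5 differed little between treatments and bx8 more. None passed 2-fold, against 0.563% of 25599 gene models, and all 6 were above 0, as were 53.7% of gene models. The log2 difference was 0.61 for bx8 (1.52-fold), 0.23 for bx5, 0.18 for bx2, 0.16 for bx1, 0.14 for bx4 and 0.04 for bx3. Among the 1755 other gene models at the same control levels, 74.4% were above 0 and the median was 0.13, close to the median of 0.17 over the 6 genes. The sign of the differences for bx1 to bx4 depended on scaling: after quantile normalization they were -0.07, -0.03, -0.27 and -0.10. bx8 was above 0 by 0.49 or more in every setting, and 98.9% of gene models in shoots lay below its effect. In leaves, 96.7% of gene models lay below the bx8 effect of that organ.

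In roots the genes did not move together. bx4 was lower in EBL by 0.64 (log2), bx3 by 0.31 and bx5 by 0.24, while bx2 was higher by 0.23, bx8 by 0.13 and bx1 by 0.01. None passed 2-fold, against 2.21% of 25741 gene models, and 3 of the 6 were above 0, against 58.8%. bx4 ranked 1982 in control roots, at 82.1 RPKM, and 3168 in EBL roots, at 52.3 RPKM, and 3.61% of gene models had a lower effect. Over all settings bx4 lay between -0.70 and -0.62, bx3 between -0.38 and -0.29 and bx5 between -0.31 and -0.22. bx1 changed sign, at -0.05 under median-ratio scaling.

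Gene models enriched in 1 organ mostly moved in 1 direction with EBL in some organs and were more evenly split in others. Of all gene models compared, 58.8% were above 0 in roots, 53.7% in shoots and 48.2% in leaves. Of 354 leaf-enriched gene models compared there (at least 10 RPKM and 8-fold above the other organs), 292 were lower in EBL roots, where their median was 1.48 RPKM against 3.52 without EBL. Of 69 shoot-enriched ones, 62 were higher in EBL roots, where their median was 0.840 RPKM against 0.291. In leaves 53 of 69 shoot-enriched gene models were higher in EBL, where their median was 1.72 RPKM against 1.22. Of 364 leaf-enriched ones, 264 were higher in EBL leaves, with a median effect of 0.35. In shoots 320 of 347 root-enriched gene models were lower in EBL, where their median was 0.632 RPKM against 1.34. The other combinations were more even. Root-enriched gene models were higher in 210 and lower in 169 cases in roots, and 175 and 158 in leaves. In shoots, leaf-enriched ones were higher in 179 and lower in 181 cases, and shoot-enriched ones in 54 and 26. None of the 6 genes met the rule for enrichment in any organ. The part of RNA from other organs in the values of the bx genes was not tested.

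**Figure D3:**
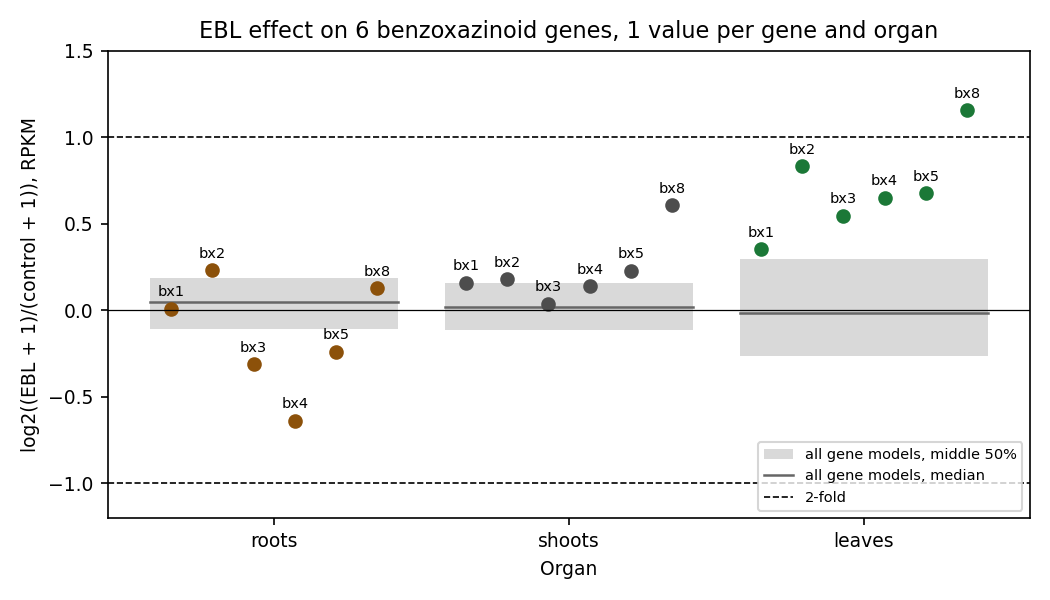
EBL effect on each gene as log2((EBL + 1)/(control + 1)) of RPKM values, 1 point per gene and organ, over the median and middle 50% of all gene models compared in that organ (grey); dashed lines mark 2-fold. In leaves all 6 points lie above the grey band, from 0.35 to 1.16, in shoots they lie between 0.04 and 0.61, and in roots between -0.64 and 0.23.

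**Figure D4:**
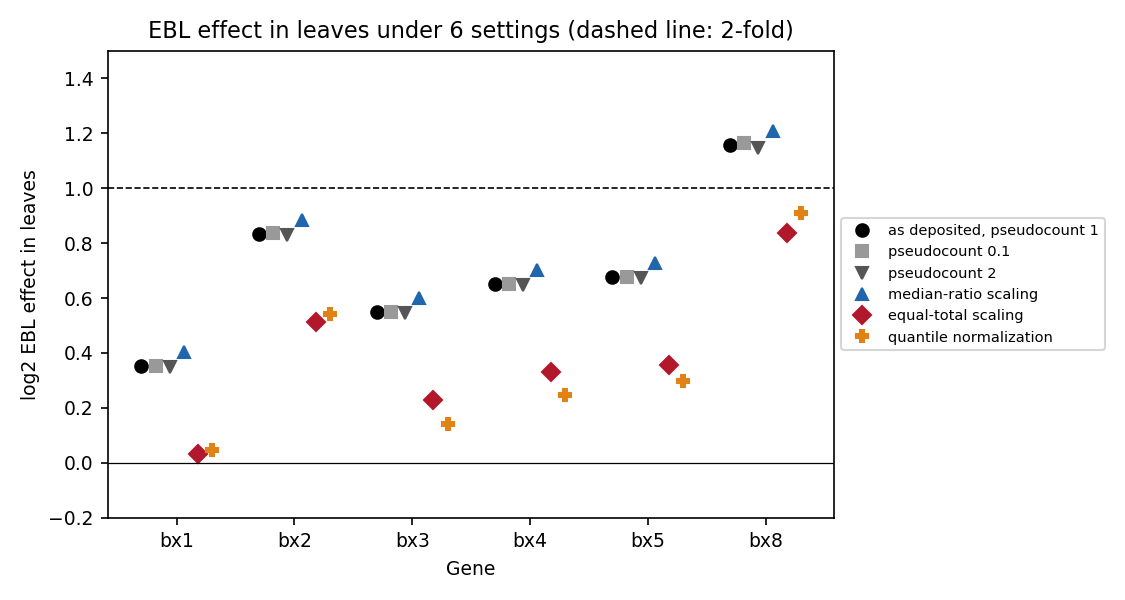
Log2 EBL effect in leaves for each gene under 6 settings, with the dashed line at 2-fold. All points lie above 0; those of bx8 run from 0.84 to 1.21 and cross the dashed line, and those of bx1 run from 0.03 to 0.40.

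The last comparison asked whether EBL acted on these genes alike in the 3 organs. The effect was higher in leaves than in roots for all 6 genes, as it was for 44.0% of 25213 gene models, by 1.29 (log2) for bx4, 1.03 for bx8, 0.92 for bx5, 0.86 for bx3, 0.60 for bx2 and 0.34 for bx1. A difference of at least 1 was reached by 2 of the 6, bx4 and bx8, and by 7.80% of gene models in either direction. Both fell short of 1 under equal-total scaling, at 0.95 and 0.69, and after quantile normalization, at 0.89 and 0.75. Under median-ratio scaling 3 genes reached it, bx4 at 1.40, bx8 at 1.15 and bx5 at 1.03. In either direction, 9.32% of gene models reached it with that scaling, 6.94% under equal-total scaling and 7.19% after quantile normalization.

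Between leaves and shoots the effect was higher in leaves for all 6, against 45.9% of 25188 gene models, by 0.19 for bx1 to 0.65 for bx2. None reached a difference of 1, against 5.27%. Between shoots and roots it was higher in shoots for 5 of the 6, against 48.3% of 25354, with bx4 first at 0.78 and bx2 the exception at -0.05. None reached 1 there, against 3.08%. These differences share the columns of an organ and were not tested, since no replicate error is given.

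Across the 6 columns, bx1 to bx5 followed each other closely and bx8 did not. Pearson's r on the log2(RPKM + 1) scale was 0.978 to 0.998 for the 10 pairs among bx1 to bx5, and 0.650 to 0.709 for the 5 pairs with bx8. These are descriptions over 6 columns from 3 organs, and in bx1 to bx5 both root columns lie below the other 4.

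The mean profile of the 6 genes, each centred on its own mean, was compared with 17026 other gene models that reached 10 RPKM in some column. The 4 most alike were Zm00001d029190 (r = 0.999), Zm00001d048634 (0.998), Zm00001d009082 (0.998) and Zm00001d008610 (0.998), over 6 columns. The files and the reference table give no name for any of them. Shoot levels of Zm00001d048634 were 353 RPKM without and 386 with EBL, leaf levels 173 and 239, and root levels 40.4 and 35.05. For Zm00001d008610 shoot levels were 210 and 312 RPKM, leaf levels 107 and 172, and root levels 7.09 and 8.16. Zm00001d029190 and Zm00001d009082 were far lower, with maxima of 17.3 and 15.3 RPKM. In all, 497 gene models (2.92%) had an r of at least 0.95 with the profile, so a likeness of that size is not rare among these columns. Of the 6 genes themselves, bx5 was closest to the profile at 0.999 and bx8 farthest at 0.713. Each of the 6 is part of that profile, so these r values cannot be set beside those of other gene models.

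Gene models with nearby identifier numbers mostly did not share the pattern. Zm00001d048704, between bx4 and bx5 by number, stayed below 1 RPKM in all columns, with a maximum of 0.199 in control shoots. The numbers between bx5 and bx8 and between bx8 and bx1 have no entry among the 43484 gene models. Of 18 gene models within 10 numbers on either side, 7 never reached 1 RPKM, 9 reached 10 and 1 reached 100, with a maximum of 104. Among the 9, r with the mean profile ran from -0.50 to 0.97, and 1 had an r of at least 0.95. Another was at 0.90, and bx8 itself, at 0.713, does not reach that cut. That 1, picked out after its values were seen, is Zm00001d048711, the number after bx2. Its shoot levels were 33.2 RPKM without and 44.0 with EBL, its leaf levels 34.8 and 63.4, and its root levels 0.625 and 0.587. Its EBL effect in leaves was 0.85, beside 0.83 for bx2. In level it stayed far below the 6 genes in shoots, the lowest of which was bx8 at 85.5 RPKM.

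**Figure D5:**
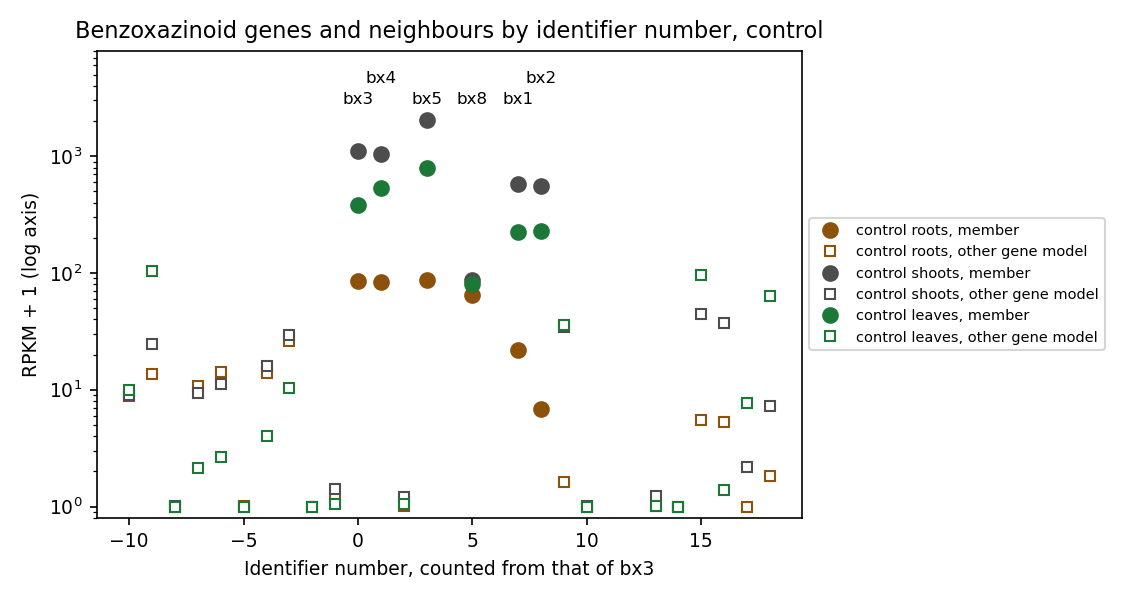
RPKM + 1 (log axis) in control roots, shoots and leaves against identifier number, counted from that of bx3, for the 6 genes (filled circles) and 19 other gene models (open squares). The 6 genes stand above their neighbours in shoots, where none of the 18 flanking gene models exceeds 43.1 RPKM, and Zm00001d048704 lies near the floor.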

How the data were processed

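The values are RPKM made by the authors, in a deposited table whose 6 columns each stand for an organ and a treatment, per the file headers. The sources used here do not give how 3 replicates were combined, how libraries were scaled to each other, or how reads shared by related genes were assigned. CASAVA 1.8, Trimmomatic 0.33, TopHat2 2.0.13, Cufflinks 2.2.1 and the build B73 RefGen_v4 are named, with no roles, per the submitters' processing notes. Libraries were stranded (TruSeq) from DNase-treated TRIzol RNA, per the labels' protocols.

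The planned limma models need single libraries and were not run; the size rule planned for a table of this kind was used. Gene models were compared when at least 1 column reached 1 RPKM and the columns compared were above 0. The effect is the log2 ratio after adding a pseudocount of 1, which understates changes of low genes, and at least 1 in size (2-fold) counts as a difference. It was computed over all gene models. A test paired by organ was not run; over 3 organs its exact two-sided p cannot go below 0.25. Low values showed no steps of whole reads. The size rule and the scalings were run on simulated data only to check that they work as written. The spread there was set and not taken from these data, so no error rate follows. The text names the 6 genes, the 4 gene models most alike in profile and those between the 6 by identifier number; Zm00001d048711 lies outside that rule and was added after its values were seen. The rule for the 6 genes uses no measured value, but the genes, lists and rules were chosen with earlier results of these data known. The level-matched and organ-enriched values were added after the data were seen. Names of genes in RefSeq come from the table of Zm-B73-REFERENCE-NAM-5.0, whose coordinates are not used. The software was pandas 2.3.3, numpy 2.4.6 and matplotlib 3.10.9 under Python 3.11.15.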

Additional observations from a re-analysis of the deposited data

Results flagged for a closer look

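For bx3, bx4 and bx5 the EBL effect had opposite directions in roots and in the other organs, on 1 value per group. The differences were not tested. Over all gene models compared, 58.8% were above 0 in roots, 53.7% in shoots and 48.2% in leaves. The share of gene models with opposite directions was not counted, so opposite directions are not shown to be particular to these 3 genes. Between leaves and roots the effects differed by 0.86 (log2) for bx3, 1.29 for bx4 and 0.92 for bx5, each lower with EBL in roots and higher in leaves. Between shoots and roots they differed by 0.35 for bx3, 0.78 for bx4 and 0.47 for bx5. The shoot effect of bx3, at 0.04, turned negative under equal-total scaling and after quantile normalization, and that of bx4, at 0.14, after quantile normalization; with the other settings both stayed above 0. The leaf and root effects of the 3 genes kept their directions in every setting tried.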

How the results depend on the processing

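Pseudocounts of 0.1 and 2 changed no direction and no 2-fold call of the 6 genes in any of the 12 comparisons, while the scalings did. Using no minimum level or a mean of at least 5 RPKM changes only which gene models are compared. The effects of the 6 genes could therefore not change under these filters. Over all settings, 468 of 504 single values kept direction and side of 2-fold, 13 fell below it, 10 passed it and 13 changed sign. That tally includes the values under the filters, which were the same by construction. With median-ratio scaling the sign changed for bx1 with EBL in roots (-0.055), for bx8 in control leaves against shoots (0.55) and for bx2 (0.10) and bx4 (0.29) in EBL leaves against shoots. Members at least 2-fold lower in leaves than in shoots then numbered 0 in control and 0 in EBL columns, and 1 (bx8) was higher in EBL. Over all settings, gene models past 2-fold in either direction there made up 37.7 to 55.1% in control and 42.1 to 59.8% in EBL columns. With columns brought to an equal total over the gene models, bx3 with EBL in shoots was at -0.075 and the bx1 effect in leaves minus that in shoots at -0.013. Members 2-fold higher with EBL in leaves, and members whose effect was higher in leaves than in roots by 1, then numbered 0, and 4 were 2-fold lower in EBL leaves than in EBL shoots. With quantile normalization these counts were also 0, 0 and 4, bx1 with EBL in roots was at -0.0038, bx1 to bx4 in shoots at -0.070, -0.030, -0.27 and -0.10, bx8 in control leaves against shoots at 0.012, and the bx1 effect in shoots minus roots at -0.067. Under equal-total scaling the summed levels were 6130 RPKM without and 6369 with EBL in shoots, 2167 and 2739 in leaves, and 370 and 318 in roots. Sums were not computed under median-ratio scaling or after quantile normalization. Gene models past 2-fold with EBL made up 1.53 to 4.83% in roots, 0.309 to 2.78% in shoots and 4.20 to 10.5% in leaves over these settings; for differences of the effect the ranges were 1.96 to 7.60% (shoots and roots), 5.83 to 13.3% (leaves and roots) and 3.57 to 10.2% (leaves and shoots).

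No paired analysis was possible because pairing by replicate number needs single replicates and the table holds 1 value per group. Leaving out replicates was not run for the same reason. A test paired by organ was possible and was not run. Depth is unknown, so the counting error of the low root values of bx2 cannot be given.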
